A study of Mus musculus with 6 samples.

Results

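The cells compared here came from a pair of libraries of mouse mammary tumours, labelled Combined and MRX, which were captured in the same multiplexed run. All cell barcodes with at least 200 detected genes and at most 15% of counts from mitochondrial genes were taken, which gave 4476 Combined cells and 5440 MRX cells. These 9916 cells are part of the 26843 cells that pass the same limits in the 5 libraries with counts. The series title names inhibition of MERTK, cyclophosphamide and triple negative breast cancer, and the comparison is read here as asking what cyclophosphamide added to the inhibitor. Live CD45-positive cells were sorted from digested tumours, and their RNA was counted with a droplet method that tags the transcript's 3' end. The protocol also mentions spleens, although the tissue label of every library is mammary tumor.

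The labels give MRX as the treatment of 1 library and Combined as that of the other. The protocol lists the run's 4 samples as Combination, CTX, MRX and VC, and says that day 7 mice were dosed 3 hours before harvest. Combined was taken as the Combination sample, and its reading as inhibitor plus cyclophosphamide is an inference, since the labels do not spell out these names. The strain, tumour line, age, doses and number of mice in a library are not given in the sources used here. CTX, from the same run, is given beside the pair as a value, and the VC library was not analysed here. With 1 library for each label no test was run. Every interval below is a 95% interval for counting error alone, and variation between mice cannot be told apart from treatment. Combined held 46174239 UMIs (unique molecular identifiers, 1 per captured transcript) and MRX 39820290, and the median per kept cell was 8502 and 6469.5. The libraries shared 0 cell barcodes. Ptprc, which encodes CD45, stood at 1303 CPM (counts scaled to a sum of 1000000) in Combined and 1480 CPM in MRX, and epithelial-like cells made up 0.648% and 0.643% of cells.

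MERTK is a receptor tyrosine kinase by which macrophages bind and engulf dying cells, and its signalling restrains their inflammatory genes. Cyclophosphamide is an alkylating drug whose active products crosslink DNA, mainly harming dividing cells, and lymphocytes are among its targets. Interferon-gamma, made chiefly by NK and T cells, acts on myeloid cells, where it turns on chemokines such as Cxcl9, guanylate-binding proteins and the machinery of antigen presentation.

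Cells were grouped into broad lineages from marker genes. The NK-like share was 20.4% in Combined (exact interval 19.2 to 21.6) and 11.5% in MRX (10.7 to 12.4), a difference of 8.86 percentage points (Newcombe interval 7.42 to 10.3). B-like cells made up 14.3% and 5.86%, a difference of 8.48 points (7.29 to 9.69). T-like cells were fewer, at 23.3% of Combined and 35.2% of MRX cells, a difference of -11.9 points (-13.7 to -10.1). The lymphoid lineages thus did not shift in one direction, and NK-like plus B-like cells outnumbered T-like cells in Combined and not in MRX.

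Neutrophil-like cells showed the widest ratio among the compared lineages, at 1.79% of Combined cells and 8.97% of MRX cells, a difference of -7.18 points (-8.05 to -6.33). Plasmacytoid dendritic-like cells (pDC-like, interferon-producing dendritic cells) made up 2.95% and 4.94%. Conventional dendritic-like cells (cDC-like), which present antigen to T cells, made up 2.41% and 3.88%. Monocyte-macrophage-like cells were at nearly the same share, 25.2% and 24.7%, and the interval of the difference ran from -1.21 to 2.22 points. In CTX the monocyte-macrophage-like share was 46.4%, the NK-like share 6.12%, the B-like share 6.50%, the T-like share 20.0% and the neutrophil-like share 1.15%.

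Shares sum to a whole, so the lineage with the widest difference in points was also left out of the denominator. Without T-like cells the monocyte-macrophage-like share was 32.9% of Combined and 38.2% of MRX cells, a difference of -5.27 points (-7.51 to -3.02). Clusters with markers of a pair of lineages and high UMI counts were called mixed and kept out of every lineage. The pair of monocyte-macrophage and conventional dendritic markers did not count for this. The mixed clusters held 8.94% of Combined cells and 4.25% of MRX cells. With these clusters counted in the lineage they resemble most, the difference was 3.53 points for monocyte-macrophage-like and -0.509 points for pDC-like cells.

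**Figure D1:**
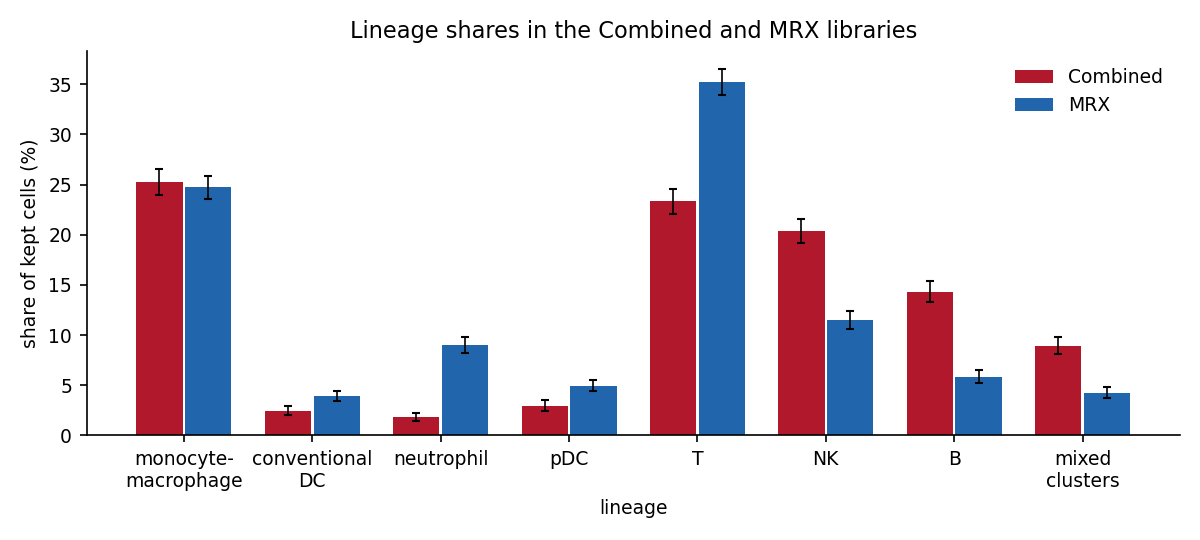
Share of kept cells (vertical axis, percent) in each lineage for the Combined library (red) and the MRX library (blue), with exact 95% counting intervals as error bars. NK-like and B-like cells were at 20.4% and 14.3% in Combined against 11.5% and 5.86% in MRX, T-like and neutrophil-like cells were lower in Combined, and the monocyte-macrophage-like bars lie within each other's intervals.

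Within the monocyte-macrophage-like cells the mix of clusters differed widely. Cluster 0, led by Plcb1, Thbs1, Vcan, Inhba, Hp and Ly6i, held 62.6% of the lineage in Combined and 25.7% in MRX, with 39.6% in CTX. Cluster 1, led by Ccl8, the mannose receptor gene Mrc1 and Selenop, held 19.0% and 46.0%. Cluster 5, led by the complement genes C1qa, C1qb and C1qc, held 8.59% and 21.9%. A mixed cluster, kept out of the lineage, was led by Arg1, C1qc and C1qa and held 240 Combined and 127 MRX cells. Cluster 5 itself held 97 and 295 cells, so its shares leave out part of the cells with leading C1q genes. Cluster 8, led by the interferon-stimulated genes Rsad2 and Cxcl11, held 9.74% and 6.39%. At a finer clustering (Leiden resolution 2) a cluster led by Inhba and Ly6i held 329 Combined and 16 MRX cells, while one led by Plcb1, Vcan and Thbs1 held 175 and 286, so the clusters with monocyte genes did not all hold more Combined cells. The genes of the lists described below were kept out of the clustering, but other genes that lead these clusters may differ between the libraries too, so the sizes are a description.

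T-like clusters also differed in size. Cluster 4, led by Gzmk, Cd8a and Ccl5 and carrying CD8 T cell markers, held 16.2% of T-like cells in Combined and 39.4% in MRX, with 16.5% in CTX. Cluster 7, led by Tnfrsf4, Ctla4, Il2ra and Foxp3, markers of regulatory T cells, but also by Tnfsf8 and Icos, held 30.05% and 20.8%. It was not of regulatory cells alone: at resolution 2 a cluster with Foxp3 among its leading genes held 174 Combined and 156 MRX cells, and one led by Tnfsf8 and Cd40lg held 97 and 183. Cluster 13, led by the division genes Rrm2, Top2a and Mki67, held 14.4% and 6.21%, and 18.7% in CTX. A dividing cluster stood out in the NK-like lineage in the same way: cluster 16 held 16.8% of NK-like cells in Combined, 7.52% in MRX and 17.6% in CTX.

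**Figure D2:**
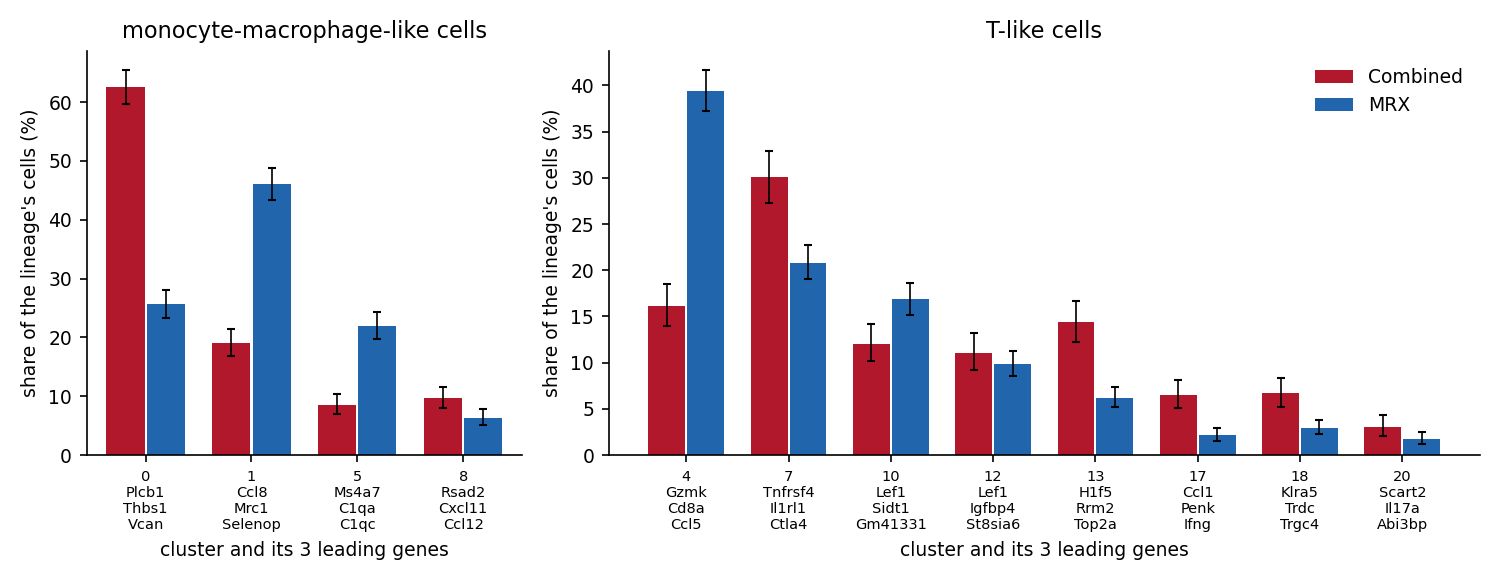
Share of the lineage's cells (vertical axis, percent) in each cluster of monocyte-macrophage-like cells (left) and T-like cells (right), with the 3 leading genes under each cluster number and exact 95% counting intervals. Cluster 0 stands at 25.7% in MRX (blue) and 62.6% in Combined (red), and the Cd8a-bearing cluster 4 stands at 39.4% in MRX against 16.2% in Combined.

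Gene levels were compared within each lineage as CPM of the counts summed over its cells. A gene was called when the log2 ratio of Combined over MRX, taken on CPM + 1, was at least 1 in size. The intervals given after log2 ratios are exact conditional binomial intervals without that pseudocount. Genes entered with at least 100 counts over both libraries and 50 CPM in 1 of them. In monocyte-macrophage-like cells 235 of 3652 genes were called (6.43%), with 125 higher in Combined (3.42%) and 110 lower (3.01%). In cDC-like cells 5.87% of genes were called (3.31% higher, 2.56% lower), and in neutrophil-like cells 10.6% (5.44% higher, 5.18% lower). The lymphoid and pDC-like lineages had smaller shares called: 1.68% in pDC-like cells (0.991% higher, 0.686% lower), 2.07% in T-like cells (1.41% and 0.666%), 1.16% in NK-like cells (0.395% and 0.763%) and 0.765% in B-like cells (0.164% and 0.601%). The neutrophil-like sum in Combined rested on 80 cells, so counting error is widest there.

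The interferon-gamma response list stood far above those backgrounds in the myeloid lineages. In monocyte-macrophage-like cells 21 of its 24 measured genes were called higher in Combined and 0 lower, and the list's median log2 ratio was 1.89 beside 0.07 over all genes. In cDC-like cells 18 of 23 were called higher (median 1.77, all genes 0.05), and in neutrophil-like cells 15 of 19 (median 2.55, all genes -0.08). Lymphoid cells had smaller medians: 0.70 in T-like cells with 4 of 19 called higher, 0.35 in NK-like cells with 1 of 12 and 0.40 in B-like cells with 0 of 7. In pDC-like cells 2 of 7 were called higher, with a median of 0.83.

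Among the transcription factors and regulators of the list, Irf1, an interferon-induced factor that drives further targets, stood at 228 CPM in Combined, 69.7 CPM in MRX and 197 CPM in CTX in monocyte-macrophage-like cells (log2 ratio 1.70). Socs1, the feedback inhibitor of the receptor's JAK kinases, stood at 146, 20.3 and 78.6 CPM (2.79). Nlrc5, the activator of MHC class I genes, stood at 74.6, 26.9 and 57.9 CPM (1.44). All 3 were lowest in MRX, and CTX lay between MRX and Combined.

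The guanylate-binding proteins and immunity-related GTPases defend cells against intracellular microbes. Gbp4 stood at 209 CPM in Combined, 22.97 CPM in MRX and 138 CPM in CTX (log2 ratio 3.13, interval 3.00 to 3.37). Gbp2 stood at 264, 45.2 and 185 CPM (2.52), and Iigp1 at 158, 22.5 and 147 CPM (2.76). Igtp stood at 97.7, 27.2 and 78.1 CPM (1.81). Serpina3g, a protease inhibitor gene, had the largest ratio of the list at 255, 21.9 and 152 CPM (3.48, interval 3.35 to 3.73). Reads of near-identical copies can be split between genes in counting, which makes single members of the Gbp family, of the class I genes and of the pairs Ly6a and Ly6a2 or Hspa1a and Hspa1b less certain than the group.

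Stretches of promoter are shown for members of this list that were higher together, because the interferon-gamma pathway acts through known DNA motifs. They come from RefSeq on build GRCm38.p6, run 5′ to 3′ on the gene's strand, and capitals mark matches to GAS (TTCNNNGAA, the gamma-activated site) or ISRE (TTTCNNTTTC, the IRF element).
Irf1, chr11:53769909-53769947, plus strand: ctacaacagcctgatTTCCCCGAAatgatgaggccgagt
Serpina3g, chr12:104236099-104236137, plus strand: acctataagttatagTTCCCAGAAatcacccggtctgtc
Igtp, chr11:58199496-58199546, plus strand: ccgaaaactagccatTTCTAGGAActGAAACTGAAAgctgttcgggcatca
Gbp2, chr3:142620589-142620628, plus strand: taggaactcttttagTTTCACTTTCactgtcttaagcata
Socs1, chr16:10785589-10785634, minus strand: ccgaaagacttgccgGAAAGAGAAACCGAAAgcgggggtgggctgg
Cxcl10, chr5:92349078-92349117, minus strand: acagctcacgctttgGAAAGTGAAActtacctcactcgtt
Both strands of the 250 bases before each start site were searched, and matches may overlap one another. Of the 21 list genes called higher in monocyte-macrophage-like cells 15 had a promoter in the table, and 12 of these held at least 1 match. GAS was found in 5 of them and ISRE in 10. Over all 32851 promoters of the same length 9.66% held either motif (GAS 7.02%, ISRE 2.98%), and over the promoters of genes measured in these cells 9.07% did. The background shares count single promoters, while the 12 of 15 counts genes with a match in any of their promoters. Because the list was chosen as interferon-gamma targets, its motif share says nothing about these libraries. A match describes the letters and is no evidence of binding.

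The chemokines of the list recruit T and NK cells through the receptor CXCR3. Cxcl9 stood at 1038 CPM in Combined, 294 CPM in MRX and 1045 CPM in CTX in monocyte-macrophage-like cells (log2 ratio 1.82, interval 1.76 to 1.87). In cDC-like cells it stood at 636, 173 and 727 CPM (1.87), and in neutrophil-like cells at 659, 73.4 and 446 CPM (3.15). Cxcl10 stood at 283, 72.4 and 230 CPM in monocyte-macrophage-like cells, and Cxcl11, a leading gene of cluster 8, at 279, 120 and 395 CPM, with a ratio of 0.71 once the clusters were weighted alike. Cd274, which encodes the checkpoint ligand PD-L1, stood at 473, 110 and 425 CPM (2.10). Pdcd1lg2, the gene of the second PD-1 ligand, stood at 53.3, 4.72 and 68.6 CPM (3.25).

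A larger share of cells also had a Cxcl9 UMI. With each cell thinned to 1000 UMIs, 38.6% of Combined monocyte-macrophage-like cells had a Cxcl9 UMI (35.8 to 41.5) and 8.23% of MRX cells (6.81 to 9.83), with 37.1% in CTX. Without thinning the shares were 70.9% and 15.5%, at median depths of 10674 and 8069 UMIs. Thinning left out 5 Combined and 8 MRX cells as too shallow. In B-like cells, which should lack the gene, the thinned share was 0.940% in Combined and 0 of 316 cells in MRX, which allows up to 1.16%. The unthinned B-like shares were 1.87% and 0.940% at median depths of 4378 and 4939 UMIs. In T-like cells 1.93% and 0.314% of thinned cells had a Cxcl9 UMI, at median depths of 5797 and 4750.

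The difference was also present within single clusters. In cluster 0, 22 of 24 list genes were called higher in Combined beside 3.98% of all genes there, with a list median of 1.60. In cluster 1 it was 18 of 21 (all genes 2.36%, list median 1.92), and in cluster 5 it was 16 of 21 (all genes 3.24%, list median 2.03). In cluster 8, which interferon-stimulated genes lead, 9 of 24 were called higher (all genes 1.96%), and the list median was 0.62. Cxcl9 stood at 1123 CPM in Combined and 356 CPM in MRX in cluster 0, at 700.5 and 218 CPM in cluster 1 and at 1134 and 152 CPM in cluster 5. In cluster 8 it stood at 921 and 1044 CPM, so there the level was not higher in Combined.

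**Figure D3:**
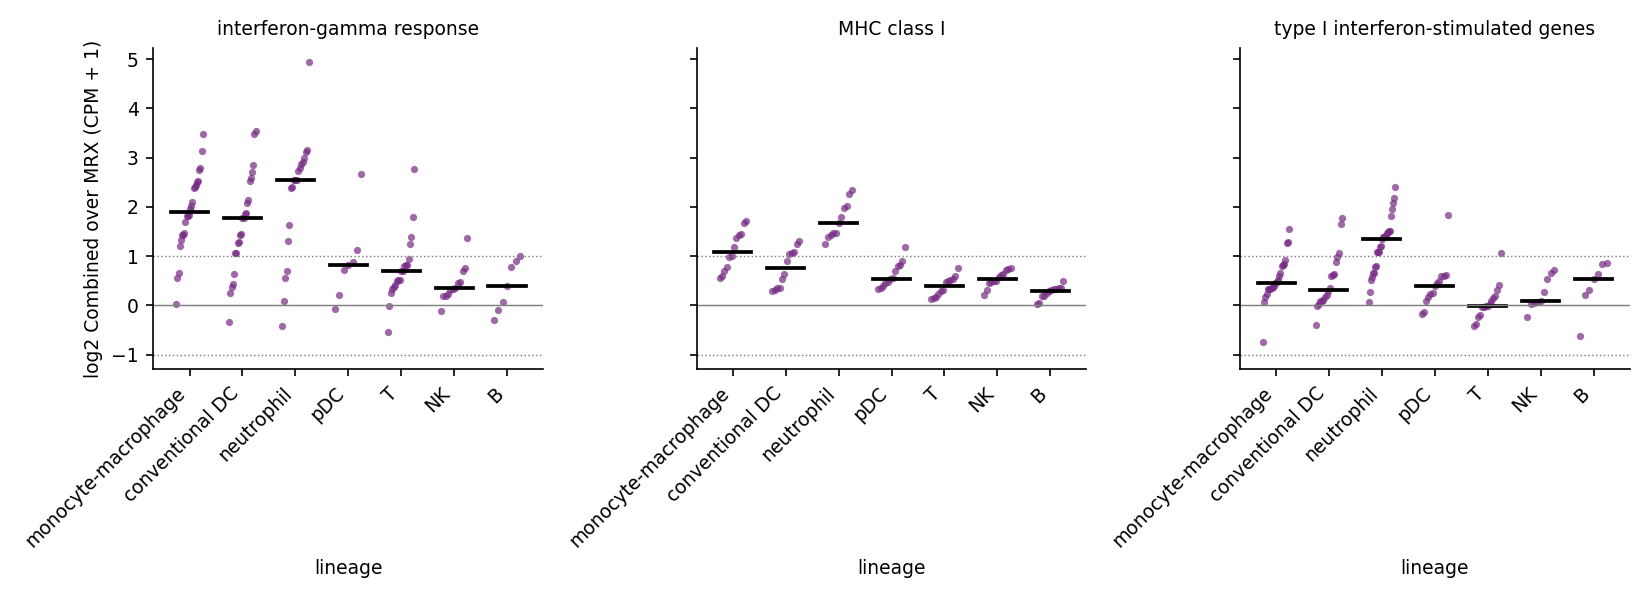
Log2 ratio of Combined over MRX on CPM + 1 (vertical axis) for each measured gene (points) of 3 lists in the 7 lineages, with the list median as a black line and dotted lines at the call limit of 1 in size. The interferon-gamma response medians are 1.89, 1.77 and 2.55 in the first 3 lineages and at most 0.83 in the rest, and the type I median passes the limit in neutrophil-like cells, at 1.34, and in none of the other 6 lineages.

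Antigen presentation by MHC class I showed the same pattern. In monocyte-macrophage-like cells 7 of 12 genes of this list were called higher (median 1.09), in cDC-like cells 5 of 12 (0.77) and in neutrophil-like cells 11 of 11 (1.67). In pDC-like cells 1 of 12 was called, and in T-like, NK-like and B-like cells 0 of 12, with medians of 0.54, 0.39, 0.54 and 0.30. Every measured member was above 0 in every lineage. The peptide transporter genes Tap1 and Tap2 stood at 185 and 172 CPM in Combined and at 57.0 and 52.0 CPM in MRX in monocyte-macrophage-like cells. Psmb9, a subunit of the immunoproteasome that cuts peptides for class I, stood at 643 and 234 CPM (log2 ratio 1.45). MHC class II genes, which present to CD4 T cells, had 0 of 8 called in the same cells, with a median of 0.24.

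Type I interferon-stimulated genes, which overlap with the interferon-gamma programme in part, were called higher for 3 of 22 members in monocyte-macrophage-like cells, Zbp1 and Oasl1 among them, with a median of 0.47. In neutrophil-like cells 19 of 27 were called higher, with a median of 1.34. Isg15, a ubiquitin-like effector, stood at 5270 CPM in Combined, 2005 CPM in MRX and 4932 CPM in CTX neutrophil-like cells. In cluster 8 of the monocyte-macrophage-like cells, which genes of this kind lead, the list median was -0.45, and 0 of 29 were called higher and 4 lower (all genes 1.76% lower). T-like cells had a median of -0.00 with 1 of 15 called higher.

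Ifng itself was counted in NK-like and T-like cells. In NK-like cells it stood at 143 CPM in Combined, 31.1 CPM in MRX and 50.7 CPM in CTX (log2 ratio 2.17, interval 1.97 to 2.44). Without the 5 cells with most Ifng UMIs in each library the ratio was 2.003, and by the mean of each cell's CPM it was 1.51. After thinning, 7.40% of Combined NK-like cells had an Ifng UMI (5.78 to 9.30) and 3.05% of MRX cells (1.85 to 4.72). In T-like cells Ifng stood at 295, 52.0 and 168 CPM (2.48), but 5 cells held 70.1% of the Combined counts, and without the 5 top cells in each library the ratio was 1.22. With the clusters weighted alike it was 1.85, and within clusters 4, 7, 10, 13 and 18 it was 0.47, 0.67, -0.41, 0.64 and 1.17. Cluster 17, which has Ifng among its leading genes, held 6.51% of T-like cells in Combined and 2.14% in MRX. The thinned T-like shares, 4.53% (3.35 to 5.98) and 3.46% (2.68 to 4.38), had overlapping intervals. In B-like cells 0 of 638 Combined and 0 of 316 MRX thinned cells had an Ifng UMI, which allows up to 0.577% and 1.16%. Unthinned, the B-like shares were 0 and 0.313%. Unthinned, Ifng UMIs were seen in 24.7% and 12.3% of NK-like cells and in 15.02% and 11.7% of T-like cells. The receptor gene Ifngr1 was lower in Combined cDC-like cells, at 207 CPM against 417 CPM, and stood at 206 and 338 CPM in monocyte-macrophage-like cells (-0.71).

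Genes of monocytes were among those higher in monocyte-macrophage-like cells and among those lower. Ly6c2, the surface marker of classical monocytes, stood at 957 CPM in Combined, 322 CPM in MRX and 771 CPM in CTX (log2 ratio 1.57). Ly6i, a related gene, stood at 478, 45.4 and 346 CPM (3.37). Ly6a, which interferons induce, stood at 844, 78.2 and 935 CPM (3.42). Of 13 measured genes of the monocyte state list 3 were called higher, Ly6c2 and Ly6i among them, and 3 lower (F13a1, Fn1 and Pou2f2). F13a1, which encodes a clotting factor subunit of monocytes, stood at 105 CPM in Combined and 326 CPM in MRX, and Fn1, the fibronectin gene, at 81.3 and 328 CPM. The list held no single direction, with a median of 0.26. Ly6i, F13a1, Apoe, Trem2, Cd63 and Chil3 are also among the leading genes of a cluster, so the mix of clusters moves with them.

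Of the lipid-handling genes of tumour macrophages, Apoe and Trem2 were lower and Lpl higher in Combined. Apoe, a lipid carrier, stood at 1735 CPM in Combined, 7509 CPM in MRX and 2409 CPM in CTX (log2 ratio -2.11, interval -2.13 to -2.09). Trem2, a lipid-sensing receptor, stood at 43.1, 183 and 86.4 CPM (-2.06), and Spp1, the osteopontin gene, at 264, 827 and 365 CPM (-1.65). Lpl, which encodes lipoprotein lipase, went the other way at 142, 19.7 and 107 CPM (2.79). In the macrophage polarisation list that holds these genes 3 of 26 were called higher (Lpl, Chil3 and Cd40) and 5 lower, among them Apoe, Trem2, Spp1 and Cd63, with a median of 0.02.

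Part of these differences followed the cluster mix. With the clusters weighted alike in both libraries the log2 ratio of Apoe was -1.44, of Trem2 -1.38 and of Spp1 -1.55, while that of Cd63 was -0.39 and of Chil3 0.83, both under the limit. Apoe was lower in Combined within each of the 4 clusters, by ratios of -1.97, -1.42, -1.09 and -1.27 in clusters 0, 1, 5 and 8. Spp1 had ratios of -0.70, -2.22, -2.03 and -1.73 in the same order. Pf4, a platelet-type chemokine gene of tissue macrophages, stood at 8.58, 103 and 29.7 CPM (-3.43), and Cx3cr1, the fractalkine receptor gene, at 38.9, 198 and 68.9 CPM (-2.32). These ratios were -2.38 and -1.66 with the clusters weighted alike, and within cluster 5 the ratio of Pf4 was -0.07 (-0.60 to 0.43).

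Complement genes differed in both directions. C3, the central component, stood at 363 CPM in Combined, 88.1 CPM in MRX and 253 CPM in CTX (log2 ratio 2.03), and Cfb, a factor of the alternative pathway, at 574, 175 and 419 CPM (1.71). The receptor gene C5ar1 was lower in Combined (-1.10). C1qa, of the classical pathway, stood at 850 and 1554 CPM (-0.87), with the mixed cluster led by C1q genes left out. Within cluster 1, however, it stood at 1535 and 1435 CPM, and within cluster 5 at 4196 and 3744 CPM. Within cluster 0 its level was 239 CPM in Combined and 66.9 CPM in MRX.

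Mertk, the gene of the inhibited receptor, stood at 16.9 CPM in Combined, 35.7 CPM in MRX and 21.0 CPM in CTX in monocyte-macrophage-like cells (log2 ratio -1.03, interval -1.32 to -0.84). It was under the 50 CPM limit and so outside the counts of called genes. Within clusters the ratio was 0.19 in cluster 0, -0.82 in cluster 1, -0.50 in cluster 5 and -1.09 in cluster 8. In cDC-like and neutrophil-like cells it rested on 1 to 3 counts in each library, and T-like and NK-like cells held 2 and 1 counts in Combined and 0 in MRX. Of the scavenger and engulfment receptors 2 of 8 measured were called lower, Lrp1 (196 and 426 CPM) and the integrin gene Itgb5 (63.5 and 188 CPM), and 0 higher. The ratio of Itgb5 was -0.99 with the clusters weighted alike.

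A separate list of chemokines, which leaves out those of the interferon-gamma list such as Cxcl9 and Cxcl10, had 0 of 13 called higher and 3 lower in monocyte-macrophage-like cells. Cxcl2, which draws neutrophils through CXCR2, stood at 1216 CPM in Combined, 2553 CPM in MRX and 1231 CPM in CTX (log2 ratio -1.07), and Cxcl3, with the same receptor, at 71.0, 143 and 46.1 CPM. The call of Cxcl13 rested on few cells, since 5 MRX cells held 96.2% of its MRX counts, and without the 5 top cells in each library its ratio was 0.26. Of the dissociation-sensitive immediate early and heat shock genes, 2 of 13 were called lower, the near-identical Hspa1a and Hspa1b, and 0 higher. T cell markers summed to 19.8 CPM in Combined and 12.1 CPM in MRX monocyte-macrophage-like cells, and neutrophil markers to 138 and 188 CPM.

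**Figure D4:**
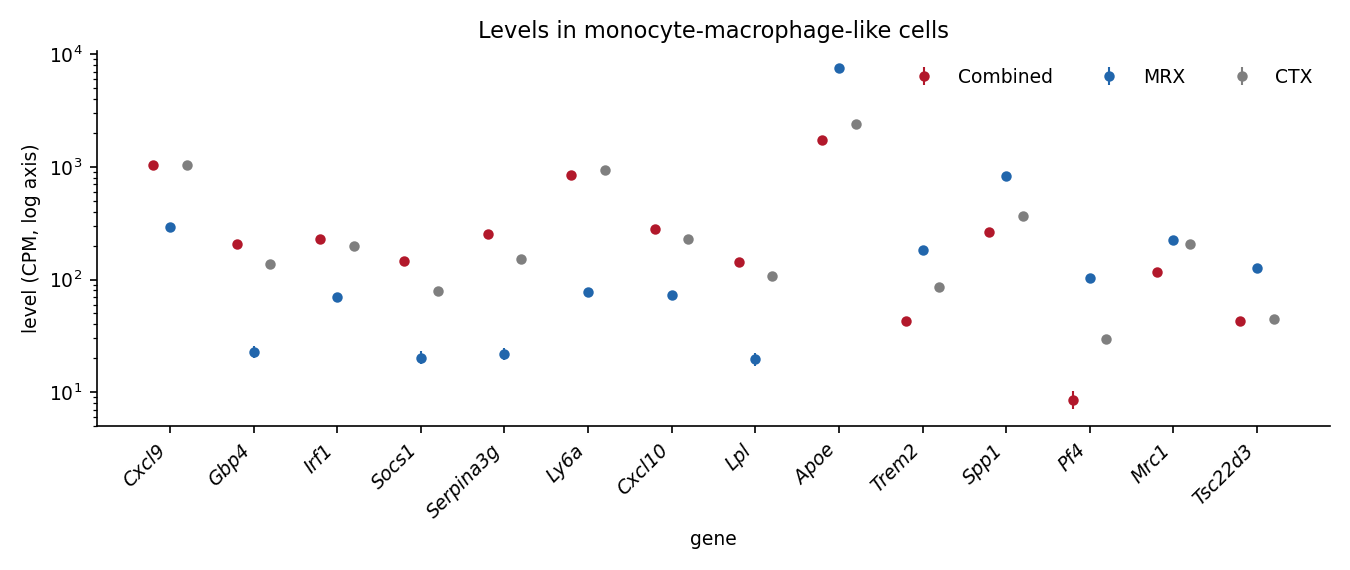
Level of 14 genes in monocyte-macrophage-like cells (vertical axis, CPM on a log scale) in Combined (red), MRX (blue) and CTX (grey), with exact Poisson 95% intervals, mostly smaller than the points. Cxcl9, Ly6a and the other genes at left sit lowest in MRX, and Apoe, Trem2, Spp1 and Pf4 sit highest in MRX.

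cDC-like cells shared much of the myeloid pattern. Besides the interferon-gamma genes, Lpl stood at 132 CPM in Combined, 7.42 CPM in MRX and 151 CPM in CTX (log2 ratio 3.99), and Serpina3g at 176, 14.8 and 102 CPM (3.48). AY761185 had the largest ratio of the named genes at 152, 2.88 and 203 CPM (5.30). Flt3, the receptor through which dendritic cells are sustained by FLT3 ligand, was lower at 65.0, 156 and 45.9 CPM (-1.25). The stress-induced mTOR inhibitor gene Ddit4 stood at 21.1, 81.6 and 27.8 CPM (-1.90). Ccl17, a chemokine of activated dendritic cells, stood at 350, 31.3 and 204 CPM (3.44), with 73.9% of the Combined counts in 5 cells and a ratio of 3.30 without them. Monocyte-macrophage markers summed to 5008 CPM in Combined and 3055 CPM in MRX cDC-like cells. The mixed rule did not cover this pair of lineages, and the part of these markers in the differences was not tested.

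Neutrophil-like cells, 80 in Combined and 488 in MRX, had the largest interferon-gamma response median of the 7 lineages. Gbp4 stood at 504 CPM in Combined, 15.5 CPM in MRX and 166 CPM in CTX (log2 ratio 4.93, interval 4.42 to 5.68), and Irf1 at 691, 117 and 346 CPM (2.55). Il1a, an alarm cytokine, stood at 1473, 339 and 674 CPM (2.12). The calprotectin gene S100a8, a mark of neutrophil identity, was lower at 6090, 13639 and 8576 CPM (-1.16), while of the 11 measured neutrophil genes 0 were called higher and 2 lower, with a median of 0.03. By the mean of each cell's CPM both lower genes, S100a8 and Retnlg, stood under the limit, at -0.85 and -0.47. Cxcl3 stood at 105, 865 and 273 CPM (-3.02). Of 14 hypoxia and glycolysis genes 5 were called lower and 0 higher, with a median of -0.75. The lipid droplet gene Hilpda stood at 290, 1205 and 356 CPM (-2.05), and Ldha, which makes lactate dehydrogenase, at 378, 913 and 552 CPM (-1.27).

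Some neutrophil-like values rested on few cells. All 7 MHC class II genes were called higher there (median 1.67), but 5 cells held 81.3% of the Combined H2-Aa counts, and without the 5 top cells in each library the ratio of H2-Aa was 0.22. Neutrophil markers summed to 34300 CPM in Combined and 57681 CPM in MRX, B cell markers to 234 and 37.0 CPM, and monocyte-macrophage markers to 9993 and 9050 CPM. The median mitochondrial share of counts per cell was 0.923% in Combined and 0.368% in MRX. The part of other cells and of RNA quality in these values was not tested. For Gbp4 the ratio without the 5 top cells was 5.38, and for Cxcl9 4.17.

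In pDC-like cells 39 genes were called higher and 27 lower, but 123 were higher with the top 5% of doublet scores removed and 168 with mixed clusters kept. Socs2, a cytokine feedback gene, had the largest ratio of the named genes at 110 CPM in Combined, 3.57 CPM in MRX and 43.2 CPM in CTX (log2 ratio 4.60, interval 3.93 to 6.19). Ly6d stood at 596, 155 and 196 CPM (1.94), and Iigp1 at 175, 26.8 and 132 CPM (2.66). Ccl4, a chemokine gene, was lower at 733, 1876 and 3738 CPM (-1.36). T cell markers summed to 987 CPM in Combined and 1340 CPM in MRX pDC-like cells.

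In T-like cells the named genes with the largest ratios included a cell cycle inhibitor. Cdkn1a, the p53 target that encodes the cell cycle inhibitor p21, stood at 223 CPM in Combined, 46.6 CPM in MRX and 193 CPM in CTX (log2 ratio 2.24). In thinned T-like cells a Cdkn1a UMI was found in 15.04% of Combined cells (12.9 to 17.4) and 3.25% of MRX cells (2.499 to 4.14). Unthinned the shares were 41.6% and 14.2%, while B-like cells had 1.10% and 0.316% thinned and 4.83% and 2.51% unthinned. Within clusters 4, 7 and 13 the log2 ratio of Cdkn1a was 1.91, 2.05 and 1.76. It was lower in clusters 10 (0.32, interval -0.98 to 1.56), 12 (1.08, interval -0.23 to 2.57) and 18 (0.94, interval 0.28 to 1.68). In NK-like cells it stood at 254, 105 and 202 CPM (1.26).

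Few other genes of the p53 list were called. Of 9 measured p53 targets in T-like cells 1 was called higher, Cdkn1a, with a list median of 0.38, and of 8 in NK-like cells 1, again Cdkn1a (median 0.47). In the dividing T-like cluster 13, 4 of 12 were called higher beside 1.49% of all genes there, with a median of 0.55. Bax, a death effector, stood at 221 and 134 CPM in T-like cells (log2 ratio 0.72), and Mdm2, the p53 ligase, at 78.3 and 59.8 CPM (0.38). In monocyte-macrophage-like cells 0 of 6 were called, although each was above 0, with a median of 0.56, and Mdm2 stood at 331 and 169 CPM (0.96). In cDC-like cells Ccng1 (1.16) and Mdm2 (1.05) were called out of 7, and Mdm2 was at 0.83 without the 5 top cells in each library. In B-like cells 0 of 8 were called higher, and Sesn1 was lower at 91.6 and 222 CPM (-1.27).

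Among cell cycle genes, in T-like cells 7 of 26 measured genes were called higher and 0 lower, all 26 were above 0, and the median was 0.65. In NK-like cells 2 of 22 were called higher, Rrm2 and Tyms, and all 22 were above 0 (median 0.66). With the clusters weighted alike all 7 T-like calls stood under the limit, from 0.13 for Ccna2 to 0.65 for Uhrf1. Rrm2 and Tyms then stood at 0.56 and 0.49 in T-like and at 0.54 and 0.61 in NK-like cells. The share of thinned cells with a Mki67 or Top2a UMI, genes of dividing cells, was 21.1% in Combined and 13.7% in MRX T-like cells, and 22.0% and 13.8% in NK-like cells, with 24.6% and 23.3% in CTX. In B-like cells the cell cycle list had 0 of 9 called (median 0.06), and the share was 4.55% and 4.75%. In pDC-like cells it was 0 of 131 in Combined, which allows up to 2.78%, and 0.743% in MRX. Unthinned the shares were 43.5% and 32.4% for T-like and 52.5% and 43.2% for NK-like cells, beside 11.2% and 16.0% for B-like and 6.06% and 5.95% for pDC-like cells. Inside the dividing T-like cluster 13, 0 of 35 cell cycle genes were called higher and 1 lower (all genes 1.13% lower), with a median of -0.13. In the Cd8a-bearing cluster 4, 5 of 17 were called higher (all genes 1.15%) and 0 lower, with a median of 0.80.

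Genes of regulatory T cells were higher among T-like cells, 4 of 9 called, 0 lower, with a median of 0.91. Foxp3, which defines these cells, stood at 71.5 CPM in Combined, 27.5 CPM in MRX and 48.3 CPM in CTX (log2 ratio 1.35). The IL-2 receptor gene Il2ra stood at 343, 120 and 242 CPM (1.51), and the costimulatory receptor genes Tnfrsf4 and Tnfrsf9 had ratios of 1.21 and 1.22. With the clusters weighted alike the ratios of Foxp3, Il2ra, Tnfrsf4 and Tnfrsf9 were 0.91, 0.96, 0.65 and 0.68, all under the limit. In cluster 7, 0 of 10 genes of the list were called higher (all genes 0.72%), with a median of 0.48, and in the dividing cluster 13 it was 4 of 8 (all genes 1.49%). In cluster 18, led by Klra5, Trdc and Trgc4, the last 2 being gamma-delta T cell receptor genes, it was 5 of 6 (all genes 2.13%), with a median of 1.26. The interferon-gamma response list in cluster 7 had 10 of 21 called higher, with a median of 0.99.

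Ccl5, Gzmk and Eomes, all active in effector CD8 T cells, were lower in Combined, but the cytotoxic effector list had 1 of 6 called higher and 1 lower, with a median of 0.12. Ccl5, a chemokine of memory and effector T cells, stood at 593 CPM in Combined, 2938 CPM in MRX and 971 CPM in CTX (log2 ratio -2.31). Gzmk, a granzyme of effector memory CD8 cells, stood at 113, 246 and 162 CPM (-1.11), and Eomes, a transcription factor of the same cells, at 28.6, 66.6 and 50.7 CPM (-1.19). With the clusters weighted alike these ratios were -1.48, -0.56 and -1.01. Ccl5 and Gzmk lead cluster 4, and Il2ra, Tnfrsf4 and Foxp3 lead cluster 7. Within the Cd8a-bearing cluster 4, Ccl5 stood at 2187 and 7386 CPM (-1.76). Gzma, a granzyme also abundant in NK cells, was higher at 329, 105 and 209 CPM (1.64). By the mean of each cell's CPM its ratio was 0.98, under the limit. NK cell markers, Gzma among them, summed to 464 CPM in Combined and 245 CPM in MRX T-like cells, and their part was not tested. Checkpoint and exhaustion genes had 0 of 12 called higher and 1 lower, Eomes, and Pdcd1, the PD-1 gene, stood at 202 and 167 CPM (0.28). Bcl2, the survival gene, was lower in T-like cells (218 and 457 CPM, -1.06) and in NK-like cells (170 and 389 CPM, -1.19). With the clusters weighted alike the T-like ratio of Bcl2 was -0.76.

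NK-like cells, whose share was higher in Combined, had few called genes. Cytotoxic granule genes had 0 of 9 called, with a median of 0.28: Gzmb stood at 2098 CPM in Combined and 1437 CPM in MRX (log2 ratio 0.55), and Prf1, the perforin gene, at 1150 and 755 CPM (0.61). The NK receptor list had 0 of 13 called and a median of -0.05. Besides Ifng, the highest ratios included Gbp5 at 64.4, 24.5 and 49.9 CPM (1.36) and Tyms, a DNA synthesis gene, at 83.7, 35.3 and 63.1 CPM (1.22). The lowest included Styk1 at 35.3, 136 and 51.6 CPM (-1.91) and Cdh1, the E-cadherin gene, at 15.7, 56.3 and 13.4 CPM (-1.78).

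B-like cells, whose share was 2.45 times that in MRX, had the lowest share of called genes. Ptpn22, a phosphatase gene that restrains antigen receptor signalling, stood at 154 CPM in Combined, 432 CPM in MRX and 149 CPM in CTX (log2 ratio -1.49), and Asph at 95.7, 32.6 and 85.9 CPM (1.53). The plasma cell genes Ighg1 and Jchain were lower, but 1 cell held 98.7% of the MRX Ighg1 counts and 84.4% of the MRX Jchain counts. Of 16 measured genes of B cell maturation 0 were called higher and Jchain alone lower.

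Across lineages, a gene was counted in a lineage where it passed the limits above and reached at least 0.5 times its level in the library's other cells. In at least 4 of the 7 lineages 3396 genes were counted, and 974 of them had 1 sign throughout those lineages. With a median log2 ratio of at least 1 in size as a further condition, 21 genes were higher (0.618%) and 12 lower (0.353%). The higher genes with the largest medians were Socs1 (2.79), Iigp1 (2.71), Ly6a (2.17), Gbp4 (2.14), Igtp (1.81), Gbp7 (1.77), Cxcl10 (1.59) and Zbp1 (1.47), all interferon-inducible. Ly6a, for one, stood at 844 and 78.2 CPM in monocyte-macrophage-like, 1109 and 154 CPM in cDC-like, 1291 and 451 CPM in pDC-like and 643 and 240 CPM in T-like cells.

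The lower genes were of a different kind. Tsc22d3, the glucocorticoid-induced leucine zipper gene GILZ, was lower in all 7 lineages, with a median of -1.38. It stood at 42.8 CPM in Combined, 127 CPM in MRX and 45.1 CPM in CTX in monocyte-macrophage-like cells, at 105, 296 and 108 CPM in T-like cells and at 164, 352 and 163 CPM in B-like cells. In NK-like cells it stood at 130, 212 and 92.1 CPM (-0.70). CTX was also lower than Combined in cDC-like cells, at 33.8 against 64.4 CPM. In the other 5 lineages the counting intervals of Combined and CTX overlapped, in neutrophil-like cells at 99.5 CPM (68.9 to 139) and 62.8 CPM (44.2 to 86.6). A list of 14 genes that glucocorticoids induce, drawn up after Tsc22d3 had been seen, had 0 called higher in any lineage, and 3 of 8 lower in cDC-like cells, 1 of 7 in monocyte-macrophage-like cells, 1 of 9 in T-like cells and 0 of 8 in NK-like cells. In cDC-like cells Ddit4 and Dusp1 joined Tsc22d3. It was the one member called in monocyte-macrophage-like, T-like, neutrophil-like (1 of 8) and B-like cells (1 of 3). In pDC-like (0 of 6) and NK-like cells no member was called, Tsc22d3 included. Fkbp5, another gene of that list, stood at 46.0 CPM in Combined and 54.2 CPM in MRX in T-like cells.

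The other 7 genes named with the lowest medians encode small ribosomal proteins and were counted in 6 lineages, since in neutrophil-like cells their level was under that limit: Rps29 (-1.49), Rps28 (-1.44), Rps27 (-1.40), Rpl38 (-1.34), Rps21 (-1.22), Rpl37 (-1.14) and Rpl39 (-1.13). Rps29 stood at 1092 CPM in Combined, 3289 CPM in MRX and 1909 CPM in CTX in T-like cells, and at 1014, 3568 and 1915 CPM in monocyte-macrophage-like cells. In neutrophil-like cells the log2 ratio was -1.23 for Rps29, -1.34 for Rps28, -0.56 for Rps21 and -0.66 for Rpl39. The pattern followed coding length among ribosomal protein genes, a split chosen after these values had been seen. The 9 with at most 300 coding bases had medians of -1.37 in monocyte-macrophage-like, -1.21 in T-like and -1.22 in NK-like cells, and the 70 longer ones -0.29, -0.20 and -0.22. Other genes with coding sequences this short had medians of -0.11, 0.03 and -0.03. Across the 79 ribosomal protein genes, which share libraries and are not independent, Spearman's rho of the ratio with coding length was 0.83, 0.84 and 0.82 in the same lineages. Ribosomal protein genes took 16.5% of T-like UMIs in Combined, 20.6% in MRX and 19.3% in CTX, and depth per cell also differed between the libraries, and its part in this pattern was not tested.

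**Figure D5:**
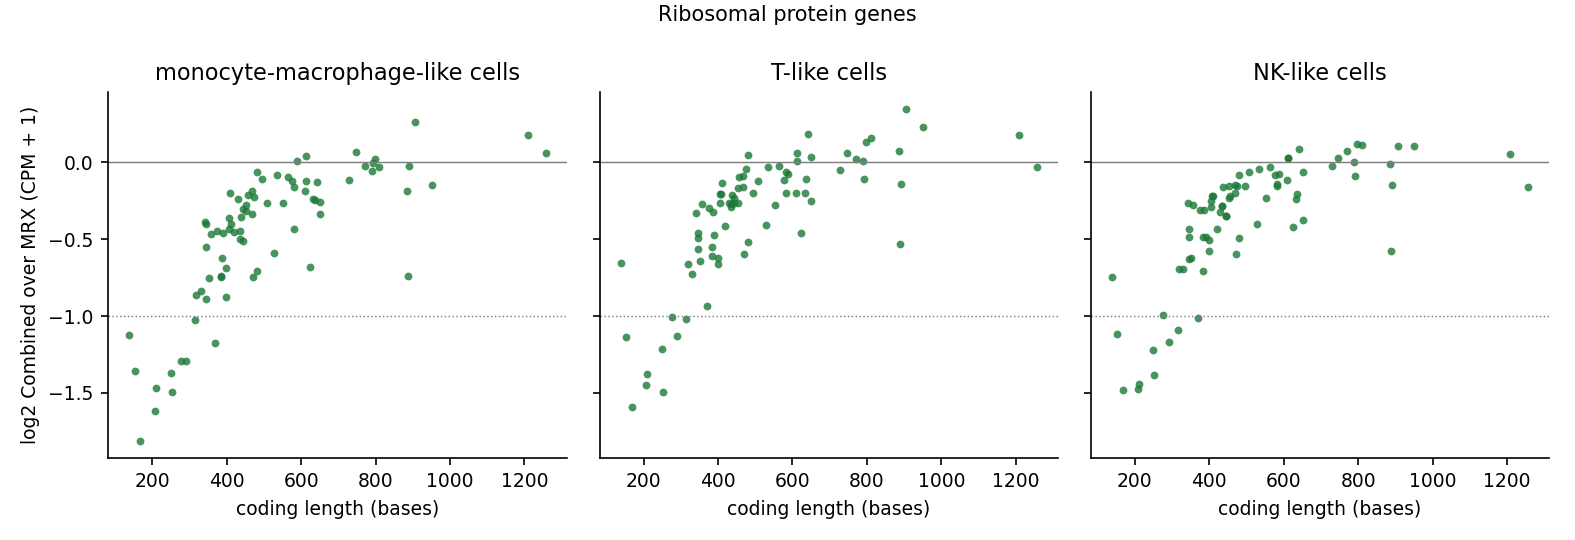
Log2 ratio of Combined over MRX on CPM + 1 (vertical axis) against coding length in bases (horizontal axis) for 79 ribosomal protein genes (points) in 3 lineages, with the call limit dotted. The 9 genes of up to 300 bases have medians from -1.37 to -1.21 and the 70 longer ones from -0.29 to -0.20, with overlap: Rpl41, the shortest, is at -0.66 in T-like cells, above Rpl36 at -1.02.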

How the data were processed

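Members and lists were chosen with earlier results of these data known. Cell Ranger 9.0.1 processed the reads and split the run by sample, as the protocols in the labels state. The authors deposited raw counts, whole numbers of UMIs for 33696 features in each barcode, with no scaling. Seurat 5.2.0 and build GRCm39 are named per the submitters' processing notes, with no step given for either.

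Combined, MRX and CTX cells were clustered together with scanpy 1.11.5 (Leiden resolution 1, 30 principal components of 2000 variable genes, listed genes left out), and clusters were named where at least 3 markers appeared in 10% of cells. Clusters with a second lineage's markers and over 1.5 times the median UMI count were called mixed. The monocyte-macrophage and conventional dendritic pair was exempt, and plasma cell markers did not count as a second lineage. The cell types are rebuilt here. Scrublet's own threshold marked 0.134% of Combined and 0.0184% of MRX cells, too few to have worked, so doublets were kept and the highest 5% by score were removed as an alternative.

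Counts were summed per lineage and library, scaled to CPM and compared as log2 ratios of CPM + 1, which understates changes of low genes. Named genes were Cxcl9, Mertk, list members past the limit, the 8 highest and lowest genes by ratio in monocyte-macrophage-like, T-like and NK-like cells (5 elsewhere) with an interval past 0.5, no cluster leader or marker and at least 0.5 times the level of other cells, and the 8 at each end across lineages. Others (Mdm2, Bax, Pdcd1, Gzmb, Prf1, Fkbp5, Ptprc, C1qa and the levels within clusters) were added after their values were seen. Coding lengths came from GENCODE vM21 and promoters from RefSeq. The gene comparison alone was tried on simulated Poisson counts for monocyte-macrophage, NK and pDC sums, without variation between cells or mice. It recovered 99% to 100% of simulated log2 changes of 1.5 and 2.5, all set past the limit. Clustering and naming were not simulated. The alternatives included each cell thinned to 1000 UMIs and, added after seeing the data, leaving out the 5 cells with the most UMIs of a gene. The day 18 libraries were not used. Intervals are Clopper-Pearson, Newcombe and Poisson intervals at 95%, and PCR duplicates are removed only as far as UMIs allow. Some genes are not reported here.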

Additional observations from a re-analysis of the deposited data

Results flagged for a closer look

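Jchain, which encodes the joining chain of secreted antibodies and is also transcribed in pDCs, differed in opposite directions between lineages. In pDC-like cells its log2 ratio of Combined over MRX was 3.29, from 137 counts in Combined and 24 in MRX, with 78.8% of the Combined counts in 5 cells. In B-like cells it was -2.39, from 184 and 538 counts, with 84.4% of the MRX counts in 1 cell. The difference between the lineages was not tested.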

How the results depend on the processing

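No paired analysis was possible because each label has 1 library, and for the same reason no replicate could be left out. The cause of a changed value was not tested. The differences in share moved most with T-like cells left out of the denominator, to -5.27 points for monocyte-macrophage-like, -2.84 for cDC-like, -11.5 for neutrophil-like and -3.79 for pDC-like cells. With mixed clusters kept in a lineage they were 3.53 for monocyte-macrophage-like and -0.509 for pDC-like cells. Without the filter on low counts, genes called higher and lower numbered 282 and 411 in monocyte-macrophage-like, 837 and 998 in cDC-like, 1894 and 2955 in neutrophil-like, 854 and 740 in pDC-like, 303 and 110 in T-like, 170 and 178 in NK-like and 624 and 519 in B-like cells, so these counts depend on that filter. With each cell thinned to 1000 UMIs, 16 genes were higher and 26 lower in cDC-like cells, 72 and 84 in neutrophil-like cells, 7 higher in pDC-like and 11 higher in B-like cells. A pseudocount of 10 CPM left 60 lower in cDC-like, 22 higher in pDC-like and 9 higher in NK-like cells. The number lower in neutrophil-like cells was 253 with at most 10% mitochondrial counts, 241 at Leiden resolution 2, 254 clustered without CTX and 259 by the mean of each cell's CPM. In pDC-like cells 123 were higher with the top 5% of Scrublet scores removed, 168 were higher and 60 lower with mixed clusters kept, and 47 were lower with libraries clustered separately, which gave 11 higher in B-like cells. With clusters weighted alike, 18 were higher in T-like cells. Median-of-ratios scaling, which moved all B-like ratios by 0.12, gave 35 lower there and 19 lower across lineages, and asking for at least 5 lineages gave 11 higher. Several single genes changed sign. With the Scrublet removal, Ighg1, Slpi and Jchain in B-like cells had log2 ratios of 0.39, 2.30 and 0.021, and Gzma in neutrophil-like cells 0.26. Without the 5 cells with the most UMIs, an alternative chosen after seeing the data, the ratios were 0.29 for Ighg1 and 0.71 for Slpi in B-like, 0.26 for Cxcl13 in monocyte-macrophage-like, -3.90 for Il12b and -0.12 for Ccl22 in cDC-like, -4.995 for Cxcl1 in neutrophil-like and -0.14 for Ifit2 in pDC-like cells. Ccr2 in neutrophil-like cells had -0.38 with the 10% mitochondrial limit, -0.46 at resolution 2, -0.42 without CTX and -5.01 after thinning. Of 313 named or listed genes that were called, 8 to 38 dropped under the limit in a given alternative.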
